A study of Mus musculus with 10 samples.

Results

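The genes of the pre-T cell receptor (pre-TCR) and of CD3 signalling were described in leukemic spleens after Sirt1 deletion and in their controls. The set holds 9 genes, chosen by symbol for their role: the pre-TCR alpha chain Ptcra, the CD3 chains Cd3e, Cd3d, Cd3g and Cd247, the kinases Lck and Zap70, and the adaptors Lat and Lcp2. All 9 were among the 16865 genes listed, and all 9 were among the 13567 that passed a filter on low values. Each spleen came from a sub-lethally irradiated C57BL/6 mouse that had received T cell acute lymphoblastic leukemia (T-ALL) cells by vein, and the leukemia carried a conditional Sirt1 allele in both groups. Sirt1 encodes a NAD-dependent protein deacetylase. In the Sirt1 deleted group, 5 mice had been given 3 mg tamoxifen in corn oil, and in the Control group 5 mice had been given corn oil alone. No group received tamoxifen without the deletion, so drug and deletion cannot be told apart, and the labels name neither the Cre driver nor the number of leukemias used. The spleens were not sorted, so recipient cells contributed RNA. Every p-value here rests on the spread among these 10 spleens, numbered 1 to 5 within each group.

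An early thymocyte that has rearranged its T cell receptor beta chain pairs it with the invariant chain encoded by Ptcra and tests the product as a pre-TCR. Neither receptor chain signals by itself. The CD3 epsilon, delta, gamma and zeta chains carry immunoreceptor tyrosine-based activation motifs (ITAMs), which the Src-family kinase LCK phosphorylates; ZAP-70 then docks on them and phosphorylates the scaffolds LAT and SLP-76 (the product of Lcp2), from which phospholipase C gamma and RAS are switched on. Most T-ALLs arise from cells at or near these stages, and in mice Notch1 signalling raises Ptcra.

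Sirt1 itself had 922, 824, 1071, 1061 and 710 normalized counts in Sirt1 deleted libraries 1 to 5, against 1324, 1348, 1174, 1192 and 1126 in Control libraries 1 to 5. The groups did not overlap, and the mean was 74.4% of the Control mean (log2 difference -0.44, limma adjusted p = 0.0125, or -0.25 and 0.0289 after the correction for transcript length and GC content). Without Sirt1 deleted library 5 and Control libraries 1 and 2 it was -0.27 and not called (adjusted p = 0.126). It was -0.00057 (limma adjusted p = 0.999) with each library's length slope, described below, as a covariate. Library totals ran from 33600000 to 34800000 normalized counts. Sequencing depth could only be approximated, from a single step per library in the spacing of the lowest values, although that step varies by gene. So estimated, it was 21400000 to 44700000 reads, with means of 31700000 (SD 8220000) in the Sirt1 deleted group and 38700000 (SD 6470000) in the Control group (n = 5 each, exact two-sided permutation p = 0.183). Of T lineage markers outside the set, Thy1 and Notch1 were abundant in both groups, and Cd8a and Cd4 were far lower. Thy1 averaged 56760 ± 4450 in Sirt1 deleted and 50965 ± 2010 in Control spleens, Notch1 54230 ± 7981 and 67338 ± 5470, Cd8a 2228 ± 142 and 2289 ± 290, and Cd4 725 ± 51.1 and 752 ± 40.2, in the same order. Libraries differed in how their values followed transcript length. The slope of a library's log2 deviations on log2 length was -0.0981 ± 0.0862 in the Sirt1 deleted group and 0.0981 ± 0.0615 in the Control group (SD, n = 5, exact permutation p = 0.00794), so short transcripts sat higher and long ones lower in the Sirt1 deleted libraries. This trend was steepest in Sirt1 deleted library 5 (-0.240) and was near 0 in Control library 5 (0.0035).

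The 9 genes spanned more than a 10-fold range of level. Counts were divided by the length of each gene's longest coding transcript to set the genes beside each other, and this order depends on which transcript is expressed. Per kilobase, Cd3g was highest, with 26884 ± 2606 normalized counts in Sirt1 deleted and 22288 ± 1812 in Control spleens (SD, n = 5). Lck (16087 ± 684 and 15840 ± 753) and Cd3e (16117 ± 937 and 15310 ± 535) followed and did not differ from each other beyond their spread in either group. Lat (15640 ± 1168 and 13777 ± 731) and Cd3d (15433 ± 1960 and 13366 ± 962) came next and likewise overlapped each other. Ptcra stood at 13816 ± 2136 per kilobase in Sirt1 deleted and 10702 ± 989 in Control spleens. A gap separated these 6 genes from Zap70 (4243 ± 482 and 3818 ± 248), Lcp2 (1570 ± 70.7 and 1794 ± 59.97) and Cd247 (1397 ± 149 and 1225 ± 90.5), whose product, the zeta chain, is known to limit receptor assembly. The order of the 9 was the same in both groups except that Lck and Cd3e changed places.

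**Figure D1:**
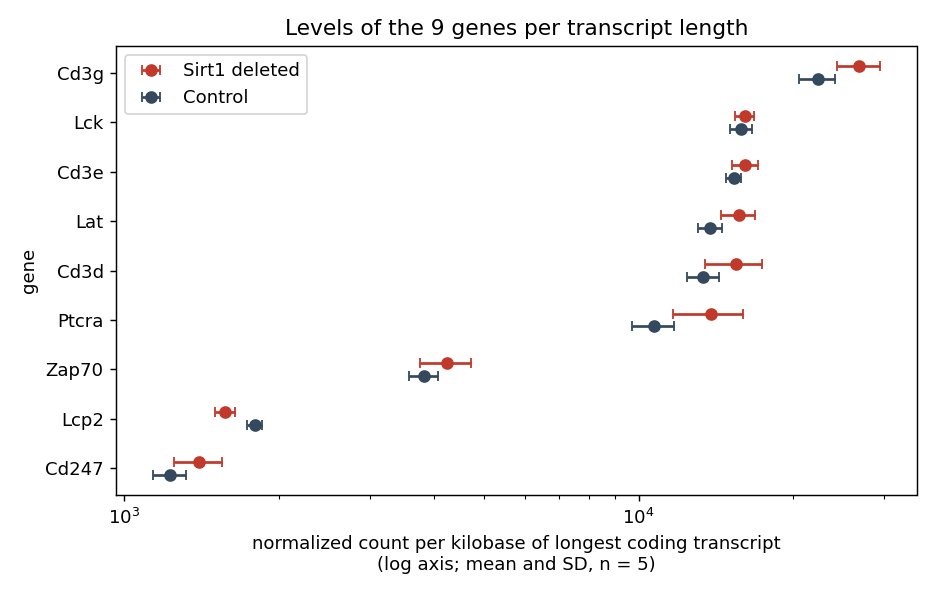
Levels of the 9 genes as normalized counts per kilobase of the longest coding transcript (log axis); points are group means and bars the SD of 5 spleens. Cd3g lies highest and Cd247 lowest in both groups.

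Ptcra, the invariant chain of the pre-TCR (chromosome 17, 46755663 to 46763712, minus strand, GRCm38), rose in Sirt1 deleted spleens. Its normalized counts were 16359, 18586, 14881, 16779 and 22022 in Sirt1 deleted libraries 1 to 5, against 12630, 13229, 14981, 12612 and 15203 in Control libraries 1 to 5. The groups overlapped only at 1 Sirt1 deleted library, number 3, which lay below Control libraries 3 and 5, while library 5 was the highest of all 10. The mean was 129% of the Control mean (log2 difference 0.36, SE 0.097, limma adjusted p = 0.0167, Benjamini-Hochberg over all tested genes, called at 0.05). The call held whichever of the 10 libraries was left out (log2 difference 0.28 to 0.42). It ended, at 0.12, after correction for transcript length and GC content (adjusted p = 0.155, 95% interval -0.00073 to 0.23).

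The genes of CD3 gamma, delta and epsilon lie within 40.1 kilobases of chromosome 9 (44969572 to 45009627). Cd3g and Cd3d are read away from each other from starts 1355 bases apart, and Cd3e lies beyond Cd3d. Cd3g rose, with 26736, 27878, 26339, 24732 and 31824 normalized counts in Sirt1 deleted libraries 1 to 5, against 20652, 22306, 22488, 22792 and 25766 in Control libraries 1 to 5 (log2 difference 0.27, SE 0.074, adjusted p = 0.0185). All but 1 of the Control libraries lay below every Sirt1 deleted library; the exception, Control library 5, lay above Sirt1 deleted library 4. Without Control library 1 the difference was 0.23 and missed the threshold (adjusted p = 0.055), and after length and GC correction it was 0.068 (adjusted p = 0.316). Its neighbour Cd3d was at 22466 to 30164 in Sirt1 deleted and 19813 to 23616 in Control spleens, a log2 difference of 0.20 that did not pass (adjusted p = 0.0733). It did pass without Control library 5 (adjusted p = 0.0499) and without Sirt1 deleted library 3 (0.0486). Cd3e had 24677, 23191, 21559, 23387 and 25004 normalized counts in Sirt1 deleted libraries 1 to 5, against 21486, 22153, 23095, 21885 and 23295 in Control libraries 1 to 5. The groups overlapped over most of this range, and the log2 difference of 0.073 did not pass (95% interval -0.042 to 0.19, adjusted p = 0.304).

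Whether the 3 neighbours moved by different amounts was not tested, and their intervals overlapped (0.11 to 0.43 for Cd3g, 0.025 to 0.38 for Cd3d). The ratio of Cd3g to Cd3e averaged 1.17 in Sirt1 deleted and 1.02 in Control spleens, and that of Cd3g to Cd3d 1.11 and 1.06, with overlap between the groups for both. Ptcra stood at 0.751 of the Cd3e count in Sirt1 deleted and 0.613 in Control spleens, and for this ratio the groups did not overlap. The ratios carry no test. The longest coding transcript has 1023 bases for Cd3g, 1283 for Ptcra, 1462 for Cd3e and 1617 for Cd3d, although the annotation also lists a Cd3d form of 286 bases. Cd247, on chromosome 1 (165788681 to 165877277), had 3676 to 4615 normalized counts in Sirt1 deleted and 3314 to 3896 in Control spleens (log2 difference 0.19, adjusted p = 0.0784). Leaving out Sirt1 deleted library 3 or 4 brought it past the threshold (adjusted p = 0.0406 and 0.0467). It was the member with the largest difference after length and GC correction, 0.25, which did not pass (adjusted p = 0.077). Its 6 coding transcripts run from 1317 to 2957 bases, and the correction used the longest.

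Neither kinase of the receptor passed the test, and Lck had the smallest difference of the 9 genes in the deposited values. Lck (chromosome 4, 129548344 to 129573641) had 37169, 35506, 32979, 35105 and 34993 normalized counts in Sirt1 deleted libraries 1 to 5, against 34203, 34394, 37343, 32880 and 34231 in Control libraries 1 to 5. The groups overlapped almost entirely, and the highest and the lowest of the 10 values were both in Control spleens. The log2 difference was 0.023 with a 95% interval of -0.092 to 0.14 (adjusted p = 0.766), and it turned to -0.15 after quantile normalization and to -0.065 after length and GC correction, without a call. Zap70, on chromosome 1 (36761798 to 36782818), had 8265 to 11055 normalized counts in Sirt1 deleted and 8000 to 9300 in Control spleens. Its log2 difference of 0.15 did not pass (95% interval -0.017 to 0.31, adjusted p = 0.15) and was -0.021 after correction. Lck varied little within a group, with a coefficient of variation of 4.25% in Sirt1 deleted and 4.75% in Control spleens, against 15.5% and 9.24% for Ptcra.

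**Figure D2:**
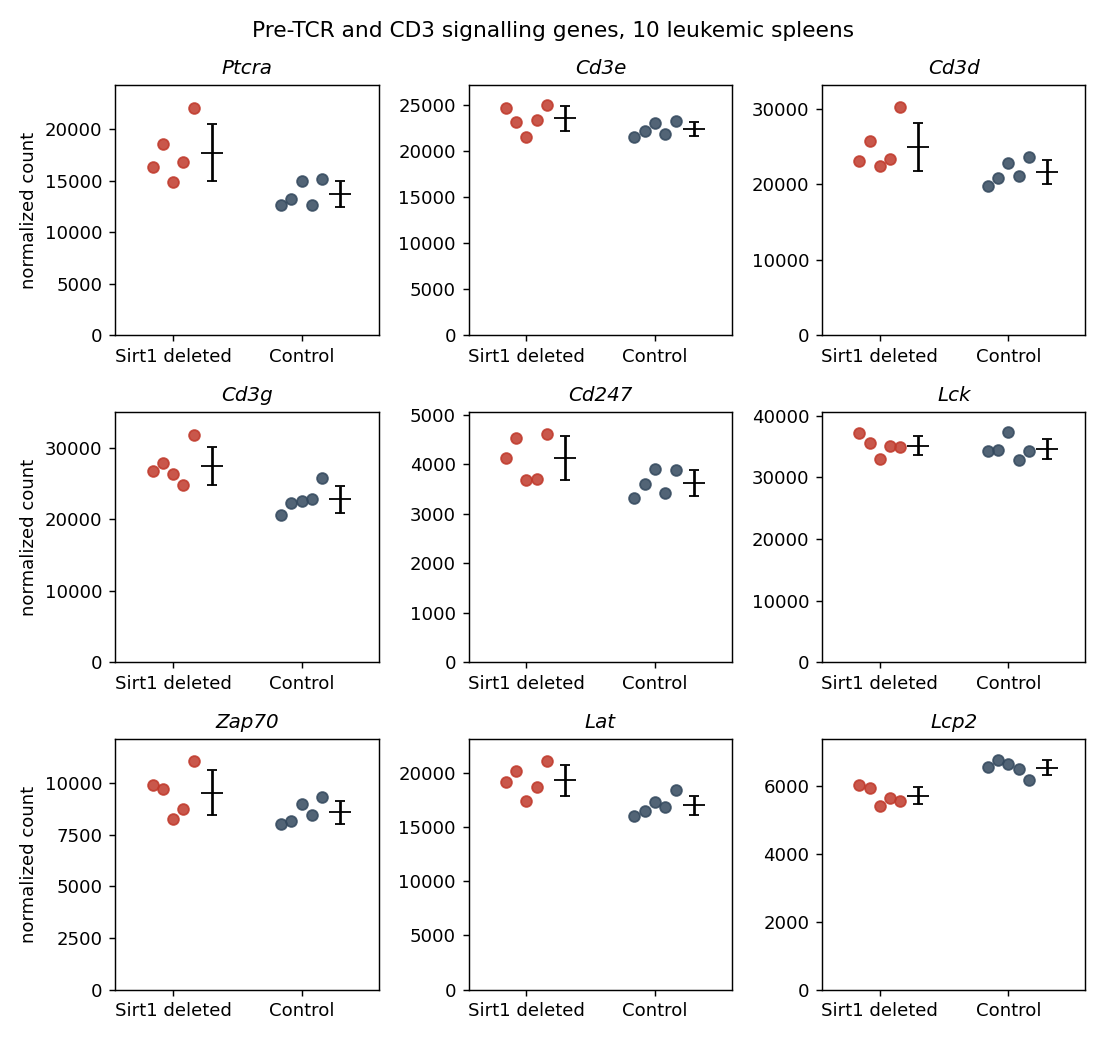
Normalized counts of the 9 genes (vertical axes from 0) in each of the 5 Sirt1 deleted and 5 Control spleens; dashes and bars give the mean and SD. Ptcra, Cd3g and Lat sit higher and Lcp2 lower in Sirt1 deleted spleens, and Lck overlaps almost entirely.

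The adaptors moved in opposite directions. Lat, the membrane scaffold (chromosome 7, 126363824 to 126369570), had 19164, 20207, 17368, 18696 and 21139 normalized counts in Sirt1 deleted libraries 1 to 5, against 16015, 16505, 17288, 16870 and 18394 in Control libraries 1 to 5. Control library 5 alone reached into the Sirt1 deleted range, above library 3. Lat rose by the test (log2 difference 0.18, SE 0.061, adjusted p = 0.0383), but the call rested on most libraries being present: it held without Control library 5 and without Sirt1 deleted library 3 or 4, and ended without any of the other 7 (adjusted p up to 0.101). After length and GC correction the difference turned to -0.099 (adjusted p = 0.114). Lcp2, which encodes the cytosolic adaptor SLP-76 (chromosome 11, 34046920 to 34092295), fell. It had 6027, 5945, 5420, 5652 and 5560 normalized counts in Sirt1 deleted libraries 1 to 5, against 6573, 6768, 6661, 6496 and 6191 in Control libraries 1 to 5. Every Sirt1 deleted value lay below every Control value, which held for no other member (log2 difference -0.19, SE 0.048, adjusted p = 0.0132). The call held with each library left out in turn (-0.21 to -0.17), and the difference was -0.092 after correction (adjusted p = 0.178). Lat thus stood at 3.38 times the Lcp2 count in Sirt1 deleted and 2.61 times in Control spleens. Lcp2 has the longest transcript of the 9 (3644 bases) and Lat one of the shortest (1235 bases). Exact two-sided permutation tests of the group means gave p = 0.0238 for Ptcra, 0.0159 for Cd3g and Lat, and 0.00794, the smallest that 5 against 5 allows, for Lcp2. In bulk RNA, fewer cells of a type and less RNA per cell cannot be told apart.

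In all, 3 members rose (Ptcra, Cd3g and Lat), 1 fell (Lcp2) and 5 did not pass. That is 4 of 9 (44.4%) beside 32.0% of all tested genes, of which 14.5% were called higher and 17.5% lower. The groups did not overlap for 1 of the 9, beside 16.5% of all tested genes (8.28% higher and 8.18% lower in Sirt1 deleted spleens). The median log2 difference was 0.18 for the members and 0.00097 for all tested genes. After correction for length and GC content, 0 of the 9 were called in limma (2 at an unadjusted p under 0.05), beside 14.6% of the 12397 genes with a known coding length (8.48% higher and 6.12% lower), and the members' median was -0.021. Without the 3 libraries of steepest length slope (Sirt1 deleted library 5 and Control libraries 1 and 2), 0 members were called and 0.015% of all tested genes were, 0.00752% in each direction (3 members at an unadjusted p under 0.05). There Ptcra stood at 0.22, Cd3g at 0.16, Lat at 0.11 and Lcp2 at -0.16. With fewer libraries in both groups, this fit also has less power to call genes.

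**Figure D3:**
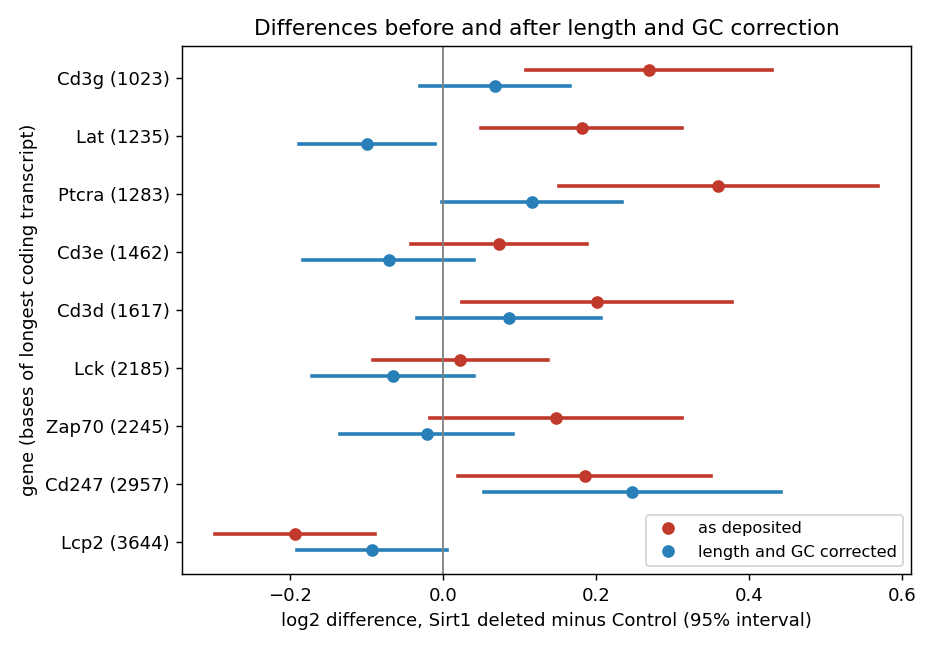
Log2 difference of each member (Sirt1 deleted minus Control, with its 95% interval) in the deposited values and after correction for transcript length and GC content, ordered by the length of the longest coding transcript. Only the corrected intervals of Cd247 and Lat leave out 0, and neither gene passed after adjustment over all genes.

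Inside the groups, the called members followed the length slopes of the libraries in part, which was not tested. In the Sirt1 deleted group, library 5, with the steepest slope, had the highest Ptcra, Cd3g and Lat values, and library 2, with the next steepest (-0.116), had the next highest of each. Library 3, with the next slope after these (-0.0638), had the lowest Ptcra, Lat and Lcp2 values of its group. In the Control group, library 5, whose slope was near 0, had the highest Ptcra, Cd3g and Lat values and the lowest Lcp2 value. Control library 4, next nearest to 0 (0.085), had the lowest Ptcra value of its group. The 2 libraries nearest a slope of 0 were Sirt1 deleted library 1 (-0.025) and Control library 5. Ptcra was 16359 and 15203 in them, Cd3g 26736 and 25766, Lat 19164 and 18394, and Lcp2 6027 and 6191, in that order. This sets 1 library beside 1, and a slope of 0 is the mean over these libraries, not an absence of length trend. Sirt1 deleted library 1 also had the lowest summed erythroid (209747) and macrophage (6443) markers of its group and the highest neutrophil markers (9627). With the slope as a covariate in limma, 0 members were called (0 at an unadjusted p under 0.05) and Ptcra, Cd3g and Lat had differences of -0.026, -0.031 and -0.017. Across the 9 genes the log2 difference and the transcript length had a Spearman rho of -0.6, and across 12397 tested genes one of -0.61; these are descriptions, since all genes come from the same libraries. Slope and group separate the same libraries, so length trend and deletion cannot be told apart in full.

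**Figure D4:**
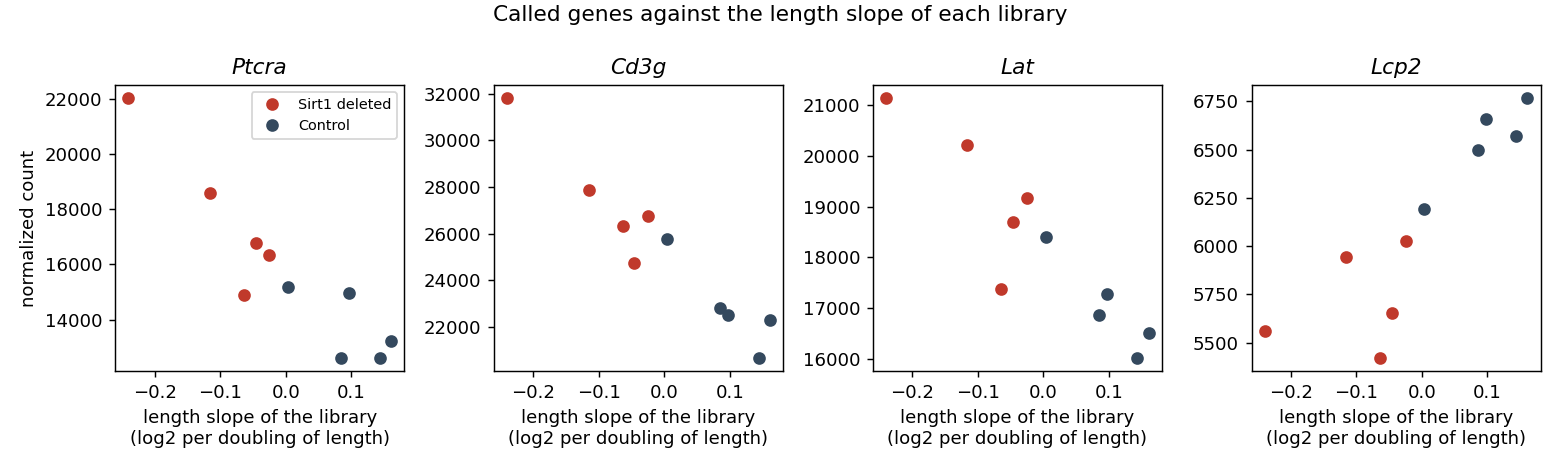
Normalized counts of the 4 called members against each library's length slope, the change in log2 value per doubling of transcript length; each point is a spleen. Ptcra, Cd3g and Lat are highest in the library with the most negative slope, Sirt1 deleted library 5, and Control library 5, with a slope near 0, lies next to the Sirt1 deleted libraries.

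The sequences before the starts of the 4 called members are given to show what their promoters share. They are RefSeq entries on GRCm38, 250 bases ending at the base before the annotated start, written 5′ to 3′ on the gene's strand, and a match was found for all 9 members by symbol. Capitals mark E boxes (CANNTG, the same on both strands), the motif read by E proteins such as those of Tcf3 and Tcf12, which are known regulators of Ptcra.
Ptcra (chr17:46763713-46763962, minus strand): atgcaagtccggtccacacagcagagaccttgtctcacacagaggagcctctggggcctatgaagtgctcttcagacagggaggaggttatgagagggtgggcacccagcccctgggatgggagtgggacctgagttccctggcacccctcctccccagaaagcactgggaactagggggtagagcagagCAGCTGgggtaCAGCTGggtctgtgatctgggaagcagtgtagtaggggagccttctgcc
Cd3g (chr9:44980432-44980681, minus strand): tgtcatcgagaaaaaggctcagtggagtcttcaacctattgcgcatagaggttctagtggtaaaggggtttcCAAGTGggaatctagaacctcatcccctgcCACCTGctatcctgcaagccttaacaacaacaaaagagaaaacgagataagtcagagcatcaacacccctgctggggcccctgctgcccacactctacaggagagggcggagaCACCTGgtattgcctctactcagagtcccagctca
Lat (chr7:126369569-126369818, minus strand): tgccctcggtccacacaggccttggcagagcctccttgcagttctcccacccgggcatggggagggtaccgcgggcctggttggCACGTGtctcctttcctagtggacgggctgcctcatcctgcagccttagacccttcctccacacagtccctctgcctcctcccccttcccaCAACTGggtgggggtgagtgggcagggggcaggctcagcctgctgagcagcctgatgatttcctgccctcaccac
Lcp2 (chr11:34046678-34046927, plus strand): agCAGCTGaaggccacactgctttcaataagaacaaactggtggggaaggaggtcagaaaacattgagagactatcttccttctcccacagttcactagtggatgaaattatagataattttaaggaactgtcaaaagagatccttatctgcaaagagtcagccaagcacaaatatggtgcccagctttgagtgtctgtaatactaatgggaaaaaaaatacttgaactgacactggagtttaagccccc
Ptcra has 2 E boxes of identical letters close to its start, Cd3g has 3, Lat has 2, and Lcp2 has 1 at the far end. Among the members that were not called, Zap70 has 3, Cd247 has 2, Cd3e and Cd3d have 1 each, and Lck has 0. Of the 9 members, 8 hold at least 1 E box in this window, beside 66.2% of 32851 promoters of the same length. The ETS core GGAA, counted on both strands, is in all 9 and in 93.4% of promoters, TATAAA is in 0 of the 9 and in 12.4%, and GTGGGAA, which RBPJ of the Notch pathway can bind, is in 3 of the 9 (Cd3g, Zap70 and Lat) and in 5.42%. These are matches of letters, not shown binding sites.

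Among 12 transcription factor genes known to act on Ptcra or the Cd3 genes, 1 rose, 6 fell and 5 did not pass. That is 58.3% called, beside 32.0% of all tested genes, with a median log2 difference of -0.25. Rbpj, the DNA-binding partner of NOTCH1, fell to 2630 ± 469 in Sirt1 deleted spleens, against 3735 ± 417 in Control spleens (log2 difference -0.52, adjusted p = 0.0108). Tcf12, the gene of the E protein HEB, fell (18104 ± 2388 and 23356 ± 1762, -0.38), as did Ikzf1, which encodes the lymphoid factor Ikaros (19918 ± 1956 and 24033 ± 1129, -0.28). Notch1 fell by 0.32 (adjusted p = 0.025), a call that ended without Control library 1, 2 or 3 (adjusted p = 0.0593, 0.067 and 0.0579). The median transcript of the list has 5122 bases, and that of the tested genes 3088. After correction Rbpj stood at -0.25 and was called (adjusted p = 0.0352), whereas Tcf12 (-0.066), Ikzf1 (-0.044) and Notch1 (-0.061) were not. The 1 gene that rose, Tcf3, which encodes the E protein E2A, was looked at after its value was seen (0.21, and 0.069 after correction without a call).

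Of 14 genes for other kinases at the receptor and their regulators, 1 rose, 5 fell and 8 did not pass. That is 42.9% called, beside 32.0% of all tested genes. Ptprc, which encodes CD45, the phosphatase that keeps LCK primed, fell to 22538 ± 3514 in Sirt1 deleted spleens, against 33746 ± 2555 in Control spleens (log2 difference -0.59, adjusted p = 0.00797, corrected -0.34, adjusted p = 0.00746). Pag1, the membrane anchor of the inhibitory kinase CSK, fell by 0.73 (4728 ± 1119 and 7713 ± 991; corrected -0.38, adjusted p = 0.021). Both were called with each library left out, but neither with the length slope as a covariate (-0.13 for Ptprc and 0.010 for Pag1). Csk, looked at after its values were seen, was at -0.050 without a call in the deposited values and was called at -0.18 after correction (adjusted p = 0.0206). Fyn, the Src-family relative of Lck, had 6455 ± 157 and 6611 ± 88.3 normalized counts in Sirt1 deleted and Control spleens (-0.035, adjusted p = 0.537), and its sign turned after correction (0.041) and after quantile normalization (0.034).

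Syk, the relative of Zap70 that can also serve the pre-TCR, fell to 1238 ± 28.8 in Sirt1 deleted spleens, against 1539 ± 117 in Control spleens (-0.31, adjusted p = 0.00797), with no overlap. After correction it was at -0.13 and not called (adjusted p = 0.0919). Zap70 stood at 7.70 times the Syk count in Sirt1 deleted and 5.61 times in Control spleens, and this ratio did not overlap between the groups. The ratio carries no test, and the longest coding transcript has 2245 bases for Zap70 and 5363 for Syk. Syk is also known from B cells and macrophages, and Lcp2 from macrophages. Summed B cell markers were at 1179 to 1833 normalized counts in Sirt1 deleted and 883 to 1208 in Control spleens (exact permutation p = 0.0159). All 12 of 12 markers were listed, Ebf1 alone was at 0 in some libraries, and Cd74, which macrophages also express, made up 70.6% of the sum. Of the 11 tested, 4 were called higher and 0 lower (36.4%, beside 32.0% of all tested genes). After length and GC correction 2 were called higher and 0 lower (18.2%, beside 14.6%). Summed macrophage markers were at 6443 to 10472 in Sirt1 deleted and 11210 to 16504 in Control spleens (12 of 12 listed, 0 at 0 in any library, exact permutation p = 0.00794). Of these 12, 0 were called higher and 7 lower, both before and after correction (58.3%, beside 32.0% and 14.6% of all genes). Their part in the differences of Syk and Lcp2 was not tested. With the summed B cell markers as a covariate in limma, 0 members were called (1 at an unadjusted p under 0.05). Ptcra then stood at 0.14, Cd3g at 0.17, Lat at 0.079 and Lcp2 at -0.25 (adjusted p = 0.677, 0.547, 0.727 and 0.315).

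Summed neutrophil markers were at 2293 to 9627 in Sirt1 deleted and 1753 to 4784 in Control spleens (exact permutation p = 0.0794), and summed erythroid genes at 209747 to 473296 and 425483 to 540173 (p = 0.0635). Of 10 NK cell markers, which matter here because NK cells also express Cd247, Zap70 and Lck, 6 were used and Gzma made up 96.2% of their sum (10664 ± 739 and 10240 ± 919, exact permutation p = 0.413). Among 6 genes of ITAM chains and Fc receptors of other cells, 1 rose, 0 fell and 5 did not pass. That is 16.7% called, beside 32.0% of all tested genes. Cd79a of the B cell receptor rose to 89.4 ± 24.1 in Sirt1 deleted spleens, against 48.1 ± 8.55 in Control spleens (0.85, adjusted p = 0.0104). Its partner Cd79b (75.6 ± 27.4 and 55.7 ± 8.85) and Fcgr3 (145 ± 18.7 and 158 ± 31.3) did not pass.

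Downstream of ZAP-70 the calls were mostly falls, while among all tested genes 17.5% were called lower and 14.5% higher. Of 15 adaptors and effectors that meet at LAT, 2 rose, 4 fell and 9 did not pass (40.0% called, beside 32.0% of all). The list's median coding transcript has 2963 bases, against 3088 among all tested genes. The longest coding transcripts of the 4 that fell have 5082 to 8436 bases, and those of the 2 that rose 1223 and 1861. Plcg1, the gene of phospholipase C gamma 1, fell to 5730 ± 588 in Sirt1 deleted spleens, against 8030 ± 710 in Control spleens (log2 difference -0.49, adjusted p = 0.00797), and was still called at -0.33 after correction (adjusted p = 0.00745). Grap2, whose product GADS joins LAT to SLP-76, fell by 0.32 (3362 ± 286 and 4196 ± 214), and Themis, which acts at positive selection, by 0.28 (3917 ± 277 and 4762 ± 350). Neither was called after correction (-0.10 and -0.0093).

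Of 21 genes further downstream, 1 rose, 9 fell and 11 did not pass (47.6% called, beside 32.0% of all tested genes). Their median log2 difference was -0.19, and their median coding transcript has 4362 bases, against 3088 among all tested genes. Map2k2, which encodes the ERK kinase MEK2, rose to 4235 ± 245 in Sirt1 deleted spleens, against 3514 ± 134 in Control spleens (0.27, adjusted p = 0.00846; corrected 0.099 without a call). Stim1, the calcium sensor of the endoplasmic reticulum, fell by 0.37 (2733 ± 274 and 3530 ± 242), and Itpr1, an inositol trisphosphate receptor, by 0.68 (1686 ± 331 and 2704 ± 502). Both were called after correction, at -0.28 and -0.33. Of 11 genes listed as negative regulators, 0 rose, 5 fell and 6 did not pass (45.5% called, beside 32.0% of all tested genes). The 5 include Tespa1 (-0.17, limma adjusted p = 0.0451), which is not an established negative regulator. Cbl, a ubiquitin ligase that turns over activated receptors, fell by 1.73 on the log2 scale (1469 ± 716 and 4552 ± 1346; corrected -1.34 and called, but -0.096 and not called once each library's length slope entered the fit), and its relative Cblb by 0.37 (2492 ± 309 and 3204 ± 233; corrected -0.059, not called). Sla, whose product SLAP lowers CD3 zeta levels in mouse thymocytes, fell by 0.25 (7493 ± 528 and 8897 ± 268) and was called at -0.20 after correction.

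Of 10 coreceptor and costimulator genes, 2 rose, 1 fell and 7 did not pass (30.0% called, beside 32.0% of all tested genes). Cd28, the costimulatory receptor, fell to 4119 ± 835 in Sirt1 deleted spleens, against 5890 ± 597 in Control spleens (-0.54, adjusted p = 0.0125), and was called at -0.34 after correction. Cd2 (9209 ± 1175 and 7529 ± 665, 0.29) and its ligand Cd48 (1455 ± 147 and 1255 ± 77.7, 0.21) rose, and neither was called after correction. Cd2 was called with 5 of the 10 libraries left out in turn, ending without any of Control libraries 1 to 4 or Sirt1 deleted library 2, and Cd48 only without Control library 5 or Sirt1 deleted library 4. Of 9 genes induced by receptor signals, 3 rose, 0 fell and 6 did not pass (33.3% called, beside 32.0% of all tested genes). The 6 were Egr1, Egr2, Egr3, Nr4a3, Cd69 and Tnfrsf9, from -0.22 (Tnfrsf9) to 0.085 (Egr1). Those that rose were Id3, which encodes an inhibitor of E proteins (2090 ± 330 and 1463 ± 300, 0.52), Nfkbid (609 ± 61.0 and 462 ± 54.6, 0.40) and Nr4a1 (693 ± 112 and 544 ± 82.5, 0.35). After correction the log2 differences of Id3, Nfkbid and Nr4a1 were 0.29, 0.25 and 0.26 (adjusted p = 0.14, 0.0591 and 0.136), and the list's median was 0.15, against -0.019 in the deposited values. The call of Nr4a1 ended without Control library 1, 2 or 5 and without Sirt1 deleted library 1, 2 or 5 (adjusted p up to 0.119).

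Over these lists together, 98 genes were tested; 11 rose, 30 fell and 57 did not pass (41.8% called beside 32.0% of all tested genes). Among the 49 with a coding transcript shorter than the median of all tested genes, 11 rose and 3 fell. Among the 49 others, 0 rose and 27 fell. After length and GC correction 18 of the 98 were called, 2 higher and 16 lower (18.4% beside 14.6% of all genes). With the length slope as a covariate 0 of the 98 were called, as were 0 of all tested genes. The median coding transcript has 1617 bases among the 9 members and 3089 among these 98 genes.

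**Figure D5:**
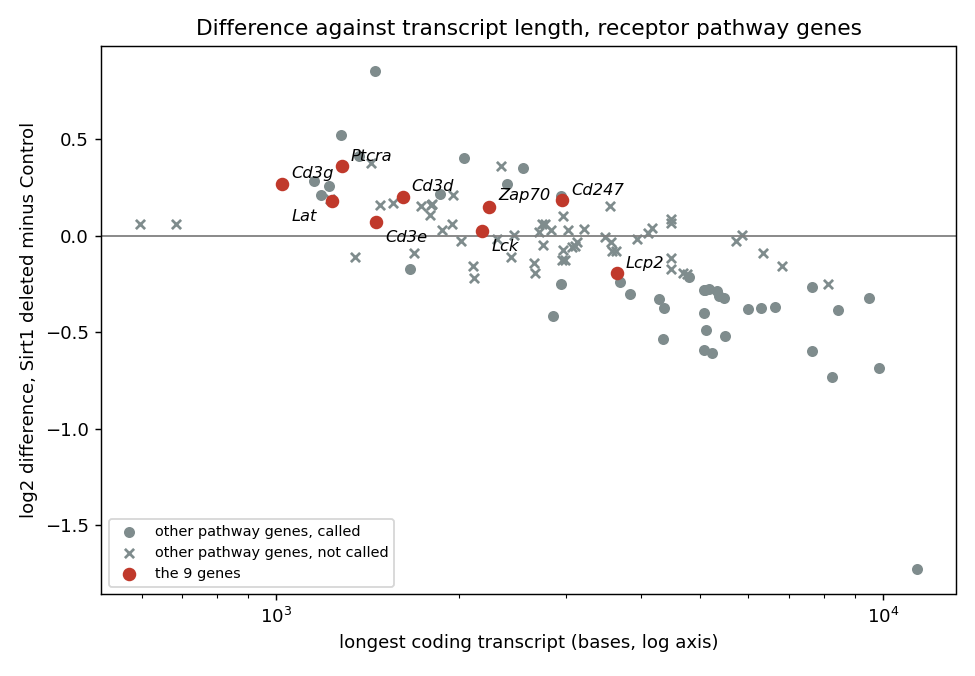
Log2 difference (Sirt1 deleted minus Control) against the length of the longest coding transcript (log axis) for the 9 members and 98 other receptor pathway genes. Shorter transcripts lie higher and longer ones lower among both the members and the other genes, with Cd247 at 2957 bases above 0, Lcp2 at 3644 bases below 0 and Cbl at 11372 bases lowest.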

How the data were processed

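RNA from 10 leukemic spleens was sequenced as strand-specific libraries, per the labels' protocols. Per the submitters' processing notes, kallisto 0.44.0 and DESeq (no version given) were used with genome mm10. The authors deposited 1 table of normalized counts per gene, a signal scaled between libraries; its annotation, its summing of transcripts by gene and whether counting used strand are not given in the sources used here. The lowest values lie near multiples of a step (87.6% to 92.1% within 0.1 of one), but the step varies by gene, so whole reads could not be recovered and count models were not fitted. Groups come from the genotype label and replicate numbers from sample order, which pairs nothing.

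Genes with a value of at least 10 in at least 5 samples were tested as log2(value + 1) with limma 3.58.1 (trend) in R 4.3.3, Sirt1 deleted minus Control, two-sided, Benjamini-Hochberg over all tested genes, called at 0.05. Fold changes are on that scale. Alternatives were pseudocounts of 0.5 and 5, no filter or a minimum of 50, TMM factors, quantile normalization, natural splines (5 degrees of freedom each) on transcript length and GC content subtracted per library, the length slope or the summed B cell markers as a covariate, and leaving out each library; leaving out the 3 steepest length slopes together was added after the data were seen. Lengths are those of the longest protein-coding transcript in GENCODE M21 (GRCm38), known for 91.4% of tested genes. The correction can remove true differences that follow length. Steps were tested on simulated data. Members, lists and the naming rule (all members; the 3 smallest p-values in each list; Syk, Fyn, Notch1 and Cbl) were chosen with earlier results of these data known; exceptions are marked. Of 7 receptor constant region genes sought by symbol, 0 were among the genes listed, so they were not analysed here. Figures used Python 3.11.15 and matplotlib 3.10.9.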

Additional observations from a re-analysis of the deposited data

Results flagged for a closer look

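In groups of 5, a library was singled out where its gap to the nearest other value exceeded 0.71 of the group's range (Dixon's criterion), which chance gives in about 1 of 20 groups; 82 groups were looked at and 3 stood out. Grap2 was lowest in Sirt1 deleted library 5, at 2869 normalized counts, with the next library at 3407 (gap 0.762 of the range); this library also had the steepest length slope. Cd79a was highest among Control spleens in library 4, at 62.7, with the next at 46.9 (gap 0.71). The summed erythroid markers were lowest in Sirt1 deleted library 1, at 209747, with the next at 439425 (gap 0.871). No member of the pre-TCR and CD3 set stood out in this way in either group.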

How the results depend on the processing

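No paired analysis was possible because replicate numbers only name the samples. The calls and directions of the 9 members were the same with pseudocounts of 0.5 and 5, without the filter, with a minimum of 50 and with TMM factors, and among other named genes Cd48 and Nr4a1 lost their calls without the filter; quantile normalization also called 4, with Cd247 in place of Lat (adjusted p = 0.0354 and 0.0519), and turned Lck to -0.15 and Fyn to 0.034. Leaving out single libraries gave 2212 to 4711 called genes, 2 to 6 called members and 27 to 44 called pathway genes; without Control library 1 the counts were 2346, 2 and 27, without Control library 2 they were 2212, 3 and 27, and without Sirt1 deleted library 2 they were 2717, 3 and 28. The difference in neutrophil markers ran from 0.54 to 1.05 and passed without Control library 3 (1.04), and that in erythroid markers from -0.42 to -0.13 and passed without Sirt1 deleted library 3.

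Length and GC correction called 1810 genes, 0 members and 18 pathway genes, where Cd3e stood at -0.071, Lck at -0.065, Zap70 at -0.021, Lat at -0.099 and Fyn at 0.041. With the length slope as a covariate limma called 0 genes (577 at an unadjusted p under 0.05), 0 members (0) and 0 pathway genes (9), and Sirt1 was at -0.00057. Signs then turned for Ptcra (-0.026), Cd3e (-0.017), Cd3d (-0.14), Cd3g (-0.031), Cd247 (-0.050), Zap70 (-0.12), Lat (-0.017), Cd28 (0.10), Cd2 (-0.055), Cd48 (-0.030), Pag1 (0.010), Itpr1 (0.030), Rbpj (0.077), Tcf12 (0.037), Ikzf1 (0.020), Cd79b (-0.18) and Notch1 (0.031). Taking the summed B cell markers as covariate, limma called 0 genes (1644 unadjusted), 0 members (1) and 0 pathway genes (16), with Sirt1 at -0.18, Lck at -0.010, Zap70 at -0.00032 and Cd79b at -0.42. Cd79a and Cd79b are themselves among the summed markers, so their values in this fit are not independent of the covariate. Without the 3 steepest slopes limma called 2 genes (3132 unadjusted), 0 members (3) and 0 pathway genes (34), with Sirt1 at -0.27 and Fcgr3 at 0.029. The cause was not tested. Of 700 values of the 35 named genes over these settings, 549 kept direction and call, 118 kept direction and lost the call, 5 gained one and 28 turned sign. Counting error at this depth is small for the members and matters for Egr2, Egr3, Nr4a3, Tnfrsf9, Cd79a, Cd79b and Fcgr3.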

Other observations

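Some genes around the receptor set, looked at after their values were seen, are given as values only. Runx1, which encodes a factor that acts on T cell receptor and Cd3 genes, had 5255 ± 367 normalized counts in Sirt1 deleted and 5241 ± 322 in Control spleens (SD, n = 5, log2 difference 0.0034, limma adjusted p = 0.972). After length and GC correction it was called higher, at 0.28 (adjusted p = 0.00745), its longest coding transcript having 5861 bases. Dtx1, a target gene of NOTCH1, rose to 40935 ± 2106 in Sirt1 deleted spleens, against 35422 ± 2232 in Control spleens (0.21, adjusted p = 0.0203), while Notch1 itself was called lower. Neither Dtx1 (0.13, adjusted p = 0.0817) nor Notch1 (-0.061, adjusted p = 0.497) was called after correction.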
